A study of Mus musculus with 2 samples.

Results

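Venous endothelial cells (ECs) of the neonatal mouse lung were taken as the cells in which summed marker UMIs (unique molecular identifiers, 1 for each captured RNA molecule) met a fixed set of limits. The members were chosen by measured counts: no fewer than 500 detected genes, mitochondrial UMIs of up to 20%, at least 3 UMIs of the endothelial genes Cdh5, Pecam1 and Cldn5 together, no UMI of Ptprc or Epcam, and at least 3 UMIs of Slc6a2, Car8 and Vwf together with at least 1 of Slc6a2 or Car8. Cells with a UMI of the arterial genes Gja5 or Bmx, of the lymphatic genes Prox1 or Mmrn1, or with 3 or more UMIs of the cycling genes Mki67, Top2a and Rrm2 were left out. These limits held 125 cells, 25 in the room air library and 100 in the hyperoxia library, out of 3691 ECs, 15520 cells past the filters and 17457 barcodes.

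The study compared lungs of C57BL/6 mice kept in 21% O2 (room air) or exposed to 80% O2 (hyperoxia) from birth to postnatal day 14, an exposure used as a model of bronchopulmonary dysplasia. Each group was 1 library of dissociated, PBS-perfused lung with red cells lysed, made from 8 pooled mice, and the labels name no transgene or deletion in either group. With 1 library per group, the exposure and the library cannot be told apart, and ratios are given with exact 95% intervals that cover counting error only. The libraries held 4234 and 13223 barcodes, they shared 17 barcode sequences, and none of the 125 cells carried a shared one. The venous ECs held 271342 UMIs in room air and 1257136 in hyperoxia, with medians of 10471 and 12292.5 UMIs per cell, against 7120 and 8146 in the remaining ECs.

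Pulmonary veins return oxygenated blood to the heart, and their endothelium is set apart from arterial and capillary endothelium by transcription factors such as Nr2f2 (COUP-TFII), by the receptor Ephb4 and, in the lung, by Slc6a2, the transporter that clears noradrenaline from the circulation. Venules are the main site where leukocytes leave the blood, and venous ECs store von Willebrand factor (Vwf) and P-selectin (Selp) in Weibel-Palade bodies. They also make prostaglandins through the cyclooxygenases Ptgs1 and Ptgs2 and act on the tone and matrix of the vessel wall.

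The rule genes are described here without comparison, since they chose the cells. Slc6a2 (chr8:92960079-93001667, mm10) had 729.7 and 1495 CPM (the summed UMIs of a gene over all cells of a group, per 1000000 summed UMIs) in room air and hyperoxia, and it was detected in 20 of 25 and 86 of 100 venous ECs, beside 0.546% and 0.592% of B cells. The lowest, median and highest cell had 0, 6.49 and 27.0 UMIs per 10000 in room air and 0, 14.3 and 65.9 in hyperoxia. Car8, a carbonic anhydrase-related protein, stood at 383 and 445 CPM. Vwf, the adhesive glycoprotein that tethers platelets, was the most abundant of them with 3339 and 2679 CPM. The summed count of the 3 genes had a median of 29 in room air and 55.5 in hyperoxia, and 3 to 201 over all members. The cells of both libraries overlapped for each of the 3 genes.

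Venous genes that the rule did not use are described next. Their list was written with earlier results of these data known, so it is no independent check of the name. Of 14 such genes, 13 had a mean of at least 50 CPM over both libraries, and 11 of these were at least 2-fold higher than in the remaining ECs in both libraries, where 3.36% of 4019 genes were. Nr2f2 had 439 and 509.9 CPM in venous ECs against 88.7 and 67.6 in the remaining ECs and 55.2 and 64.4 in arterial ECs. A UMI of Nr2f2 was found in 21 of 25 venous ECs of room air and in 92 of 100 of hyperoxia, beside 4.37% of 183 and 4.59% of 676 B cells, which lack the gene and had medians of 4355 and 2864.5 UMIs. With every cell thinned to 2000 UMIs the shares were 45.8% and 65.6% of venous ECs and 2.44% and 2.72% of B cells. Prss23, a serine protease, reached 932 and 1405 CPM against 90.1 and 94.6 in the remaining ECs. The exceptions were Mustn1 and Ephb4, both in room air. Ephb4 stood there at 239.6 CPM against 175, and in hyperoxia at 299 against 106. Ackr1, a chemokine receptor of venules in many organs, had no UMI in any venous EC, which allows up to 11.1 and 2.39 CPM (3 counts in each library). Some arterial genes that the rule did not use were low, with 11.1 and 4.77 CPM of Hey1 and 3.69 and 7.95 of Dll4. Sema3g had 33.2 and 19.1 CPM, where arterial ECs had 689 and 584. Others were not low. The 14 arterial genes, Gja5 and Bmx among them, summed to 4518 and 4898 CPM in venous ECs and 3478 and 3228 in the remaining ECs. They summed to 14418 and 17493 CPM in arterial ECs. Of the 6 past 50 CPM, 2 were at least 2-fold higher than in the remaining ECs in both libraries. Fbln5, on this list, had 1305 and 2188 CPM in venous and 922 and 2406 in arterial ECs.

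**Figure D1:**
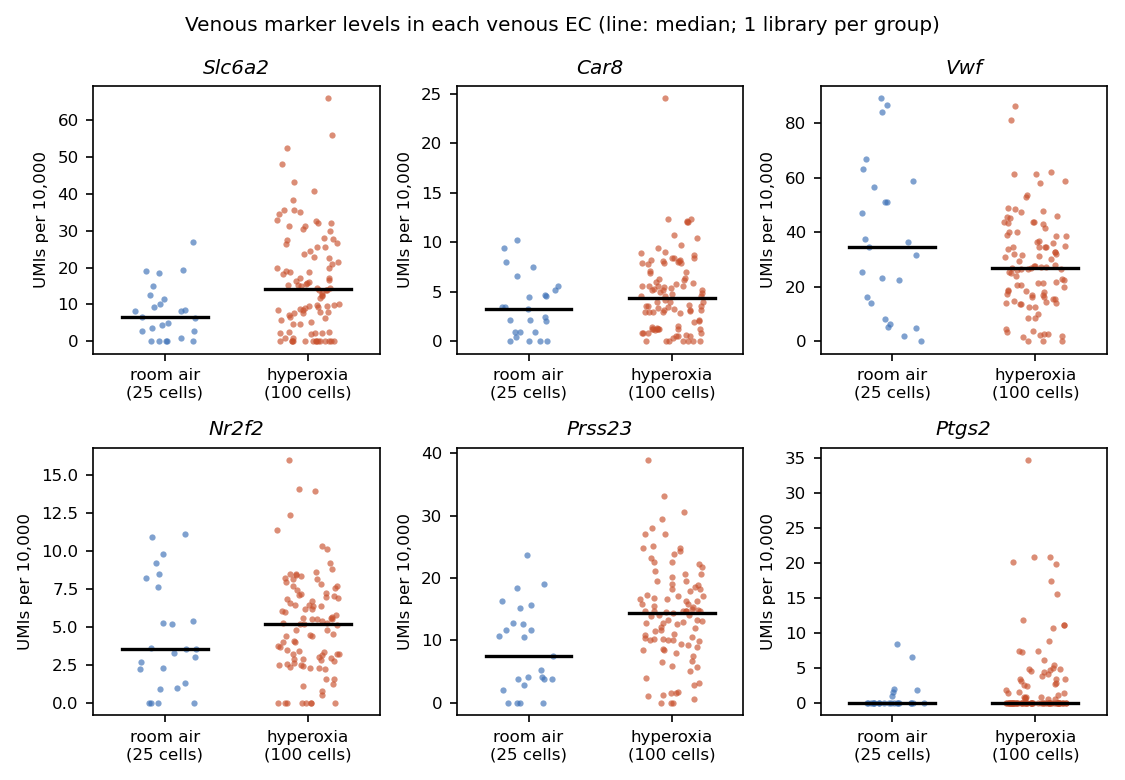
UMIs per 10000 UMIs of the cell for 3 genes used by the rule (Slc6a2, Car8, Vwf) and 3 that it did not use (Nr2f2, Prss23, Ptgs2), each point 1 venous EC of the room air or hyperoxia library and each line the median. The cells of both libraries overlap for all 6 genes, and Ptgs2 has a median of 0 in both.

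Cells just outside the limit carried more aCap RNA than the members did, while the gCap gene Gpihbp1 stood at 625 and 378 CPM in them against 638 and 218 in the members. In room air 2 members had a sum of 3 or 4 and 9 otherwise eligible cells lay just outside with 1 or 2, and in hyperoxia these numbers were 10 and 62. Just outside the limit, Car4, a carbonic anhydrase of aerocytes (aCap, the capillary cells of gas exchange), had 1022 and 854 CPM, against 144 and 41.4 over all members, and Prss23 had 36.1 and 72.7. Just inside it, Car4 had 0 and 322 CPM and Prss23 had 281 and 332. A further 16 cells of room air and 38 of hyperoxia met the venous limit but held a UMI of Gja5 or Bmx and were not members. They had 483 and 144 CPM of Nr2f2, 724 and 299 of Prss23 and 581 and 309 of Slc6a2. Members with a sum of 5 or more had 459 and 536, 968 and 1497, and 766 and 1618. For these genes the cells left out thus stood nearer to the members in room air than in hyperoxia.

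Some members carried the genes of other cell types, and with 25 cells in room air a single one can set a gene's value. Slc6a2 was absent from 5 members of room air and 14 of hyperoxia, which entered the rule through Car8 and had 255 and 542 CPM of Prss23 against 1208 and 1589 in members with Slc6a2. One of those 5 held 38 of the 39 Car4 UMIs and 85 of the 120 Emp2 UMIs of the room air members, both aCap genes, and no UMI of Vwf, Nr2f2 or Prss23. Another room air member, with 1 UMI of Slc6a2 and 8 of Vwf, held all 58 Gucy1a3, all 67 Gucy1b3 and all 17 Pdgfrb UMIs of the room air members and 70 of their 75 Pde5a UMIs, genes of pericytes, which wrap capillaries. In hyperoxia 1 member held 83.0% of the 341 Mfap4 UMIs, a gene of fibroblasts. A doublet ranking by simulated doublets would remove 0 of the 25 and 7 of the 100 members, which were kept.

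Summed over whole lists of marker genes, fibroblast RNA was higher in the venous ECs of hyperoxia than in those of room air. The 8 fibroblast genes summed to 276 CPM in room air and 878 in hyperoxia, with up to 25.3 and 172 UMIs per 10000 in 1 cell. They were detected in 17 of 25 and 73 of 100 members, with a median cell of 1.01 and 0.863 per 10000, and Dcn and Lum were at 0 in room air. Smooth muscle and pericyte genes summed to 206 and 216 CPM, epithelial genes to 560.2 and 739, and immune genes to 140.0 and 74.0. Red cell, platelet, mesothelial and cardiac muscle genes, the last from the myocardial sleeve of pulmonary veins, each summed to at most 33.4 CPM in either library. Myh6 and Alas2, which define cardiac muscle and red cells, were at 0 in both.

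Venous ECs were a small share of the endothelium in both libraries. They made up 2.53% (1.64 to 3.71) of 988 ECs in room air and 3.70% (3.02 to 4.48) of 2703 in hyperoxia, exact Clopper-Pearson intervals. The difference of 1.17 percentage points had a counting interval of -0.195 to 2.35, which includes 0. With Slc6a2 and Car8 summing to at least 2 and Vwf not used, the difference was 1.42 points with an interval of 0.149 to 2.51, which does not include 0, so whether the shares differ beyond counting error depends on the marker limit. After each cell was thinned to 2000 UMIs, with 375 and 1294 shallower cells left out, the shares were 2.36% and 3.68%. Arterial ECs, taken as cells with at least 2 UMIs of Gja5 and Bmx and none of Slc6a2 or Car8, made up 5.57% and 4.14%. Of all cells past the filters, venous ECs were 0.656% and 0.854%.

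The remaining ECs were those that by these limits were neither venous, arterial, lymphatic nor cycling. They include the 16 and 38 cells that met the venous limit but held a UMI of Gja5 or Bmx. Those cells had 34.5 and 140 CPM of Ptgs2, so part of the venous RNA of the remaining ECs is theirs. Against the remaining ECs, 135 of 4019 genes (3.36%) were at least 2-fold higher in venous ECs in both libraries and 142 (3.53%) at least 2-fold lower. Against arterial ECs, 109 of 4024 genes (2.71%) were at least 2-fold higher and 148 (3.68%) lower in both. These counts describe the cells and were not tested, because the rule sorted the same cells. Genes with the largest ratio in whichever library gave the smaller one included Ptgs2, Mmp16, Itgb4, Pgm5, Bst1, Cpe, Ptgs1, Fgl2, Amigo2, Dnm3, Cthrc1, Prss23, Fbln5 and AU021092.

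Both cyclooxygenases, the enzymes that begin prostaglandin synthesis, were among them. Ptgs2 (chr1:150100031-150108227) had 70.0 and 318 CPM in the venous ECs of room air and hyperoxia against 2.92 and 5.37 in the remaining ECs, log2 ratios of 4.58 and 5.89. Ptgs1 had 195 and 187 CPM against 15.9 and 12.6, log2 ratios of 3.62 and 3.89. Ptgis, the prostacyclin synthase that acts after them, had 66.3 and 111 CPM against 24.9 and 24.4. The 3 genes of this pathway were thus higher in venous than in remaining ECs in each library.

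Surface and matrix genes formed another group. Bst1, an ectoenzyme that cleaves NAD and takes part in leukocyte migration, had 107 and 241 CPM against 6.16 and 11.9. Mmp16, a membrane-bound matrix metalloproteinase, had 111 and 182 against 4.93 and 4.17, and Itgb4, the beta 4 integrin that binds laminin, 84.8 and 117 against 4.46 and 4.48. Fbln5, which organises elastic fibres, had 1305 and 2188 CPM against 126 and 138 in the remaining ECs and 922 and 2406 in the arterial ECs. Eln, the elastin gene, followed with 9726 and 6233 CPM against 3008 and 1958 in the remaining and 4004 and 7635 in the arterial ECs. Cpe, a carboxypeptidase that processes peptide hormones, had 560.2 and 354 CPM against 31.7 and 25.5, and Fgl2, a membrane prothrombinase, 184 and 103 against 15.2 and 4.17. In the plot of these genes by cell class the venous points lie above the remaining ECs for all 14 genes in both libraries, and above the arterial points for all of them but Fbln5 in hyperoxia.

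**Figure D2:**
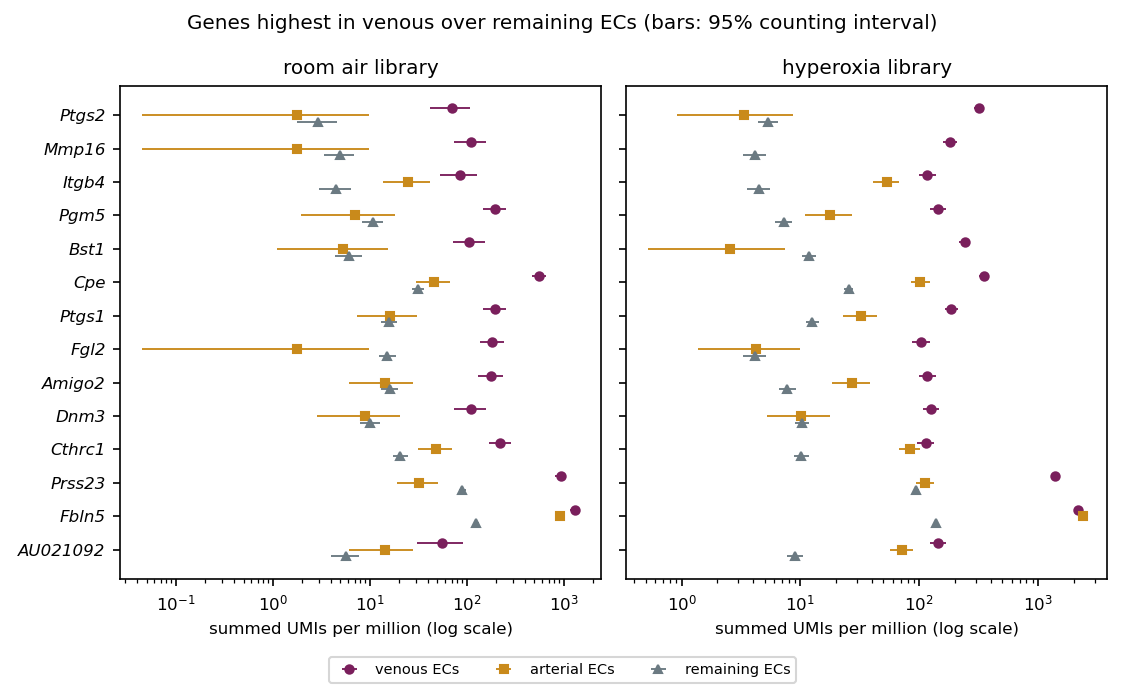
CPM on a log axis for 14 genes with the largest ratios of venous over remaining ECs, in each library, as points with 95% counting intervals for venous, arterial and remaining ECs. A class with no UMI of a gene has no point; Fbln5 in hyperoxia is the gene where arterial ECs are above venous ECs.

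The start-site regions of these genes are shown because the factor that marks veins, Nr2f2, binds DNA through the nuclear receptor half-site AGGTCA. RefSeq regions (GRCm38.p6, 250 bases before to 50 after an annotated start, read 5′ to 3′ on the gene's strand) were found for 8 of the 14 genes, with 15 starts in all. AGGTCA or its reverse complement TGACCT was present in 3 of those 15 regions, of Prss23 and Fbln5, and in 16.3% of 32851 mouse regions of this length. The matching Prss23 regions overlap and hold the same AGGTCA, so the 15 regions are not independent of each other. The match is a description of the letters and no binding was measured. The capitals mark the half-site. Ptgs2 at chr1:150099781-150100080 on the plus strand held none, Prss23 at chr7:89518155-89518454 on the minus strand held 2, and Fbln5 at chr12:101818435-101818734 on the minus strand held 1.
Ptgs2: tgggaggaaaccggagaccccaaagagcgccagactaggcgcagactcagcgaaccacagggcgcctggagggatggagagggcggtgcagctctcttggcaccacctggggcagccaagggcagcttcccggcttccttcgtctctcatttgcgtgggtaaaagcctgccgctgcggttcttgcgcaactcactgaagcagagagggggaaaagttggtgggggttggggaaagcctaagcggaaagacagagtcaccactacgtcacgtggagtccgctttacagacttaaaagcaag
Prss23: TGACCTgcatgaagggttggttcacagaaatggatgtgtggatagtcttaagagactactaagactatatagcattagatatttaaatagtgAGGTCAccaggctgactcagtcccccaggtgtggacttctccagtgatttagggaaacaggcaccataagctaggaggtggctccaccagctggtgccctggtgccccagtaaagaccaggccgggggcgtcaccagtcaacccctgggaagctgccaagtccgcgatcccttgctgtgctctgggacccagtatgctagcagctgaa
Fbln5: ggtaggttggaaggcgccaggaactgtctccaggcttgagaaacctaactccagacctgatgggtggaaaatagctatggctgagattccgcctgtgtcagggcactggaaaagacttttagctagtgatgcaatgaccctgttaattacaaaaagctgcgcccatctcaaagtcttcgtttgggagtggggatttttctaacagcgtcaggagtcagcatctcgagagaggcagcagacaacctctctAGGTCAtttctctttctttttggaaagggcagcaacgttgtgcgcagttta

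Between hyperoxia and room air, 139 of 3561 genes with a mean of at least 50 CPM (3.9%) were at least 2-fold higher in the venous ECs of hyperoxia and 158 (4.44%) at least 2-fold lower. Scaled by TMM factors, which weigh down genes of extreme ratio, the counts were 192 higher and 131 lower. The median log2 ratio over these genes was 0.016. In the remaining ECs, whose sums rest on 825 and 2257 cells, 56 and 75 of the same genes passed 2-fold. The genes were ranked among 1135 with a mean of at least 100 CPM, a UMI in at least 10% of the venous ECs of the higher library and a level there no lower than in immune, epithelial or stromal cells. The 10 largest ratios were those of Hapln1, Cdkn1a, Col15a1, Ccnd1, Bax, Rgs5, Ptgs2, Ddah1, Tinagl1 and Odc1, and the 10 smallest those of Kit, Fabp4, Rnf144a, Lifr, Clec2d, Hes1, Clec1a, Cd36, Slc6a6 and H2-Q4.

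Hapln1, Col15a1 and Tinagl1, all higher in hyperoxia, encode extracellular proteins. Hapln1 (chr13:89539796-89611652), the link protein that fixes proteoglycans to hyaluronan, had 3 and 390 UMIs, 11.1 and 310.2 CPM, a ratio of 28.1 (counting interval 9.53 to 137). It was present in 2 of 25 and 74 of 100 cells, and in 0 of 183 and 0.888% of 676 B cells, or in 4.17% and 34.4% of venous ECs thinned to 2000 UMIs. The remaining ECs had 16.2 and 117 CPM and the arterial ECs 0 and 3.39, the arterial level in room air being a count of 0. Col15a1, a collagen of basement membranes, had 36.9 and 229 CPM and a log2 ratio of 2.64 (1.74 to 3.71), with a lowest, median and highest cell of 0, 0 and 2.02 UMIs per 10000 in room air and 0, 1.77 and 9.62 in hyperoxia. In the remaining ECs Col15a1 had 66.2 and 56.8 CPM and in the arterial ECs 40.9 and 14.4, so that venous ECs held more of it than either class in hyperoxia but not in room air. Tinagl1, a matricellular protein, had 103 and 437 CPM and a log2 ratio of 2.08 (1.53 to 2.68), and 2.59 in the remaining ECs.

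Cdkn1a, Bax, Ccnd1 and Odc1 were also among the 10 genes with the largest ratios. Cdkn1a, the p21 inhibitor of cyclin-dependent kinases, had 151 and 989.6 CPM, a log2 ratio of 2.71 (2.26 to 3.20) in venous and 3.08 in remaining ECs. Its lowest, median and highest cell had 0, 0.817 and 6.42 UMIs per 10000 in room air and 0, 7.80 and 41.0 in hyperoxia, and the median cell of hyperoxia lay above the highest of room air. Bax, which permeabilises mitochondria in apoptosis, had 92.1 and 473 CPM and a log2 ratio of 2.36 (1.78 to 3.0). Ccnd1, the cyclin that drives entry into the cell cycle, had 111 and 620.5 CPM and a log2 ratio of 2.49 (1.96 to 3.07), with 43.3% of its room air UMIs in 1 cell. Odc1, the rate-limiting enzyme of polyamine synthesis, had 47.9 and 181 CPM and 1.92 (1.12 to 2.85).

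Rgs5, Ptgs2 and Ddah1 completed the 10 genes with the largest ratios. Rgs5, a regulator that shortens G protein signals and is best known from pericytes, had 162 and 747 CPM in venous ECs, 17.7 and 24.4 in the remaining ECs and 0 and 0.847 in the arterial ECs. A UMI of Rgs5 was present in 9 of 25 and 79 of 100 venous ECs, and the log2 ratio was 2.20 (1.77 to 2.67). The B cell shares were 1.64% and 1.04%, and thinning to 2000 UMIs gave 20.8% and 54.2% of venous ECs. Leaving out the room air member with the pericyte genes and the one with the aCap genes kept all 44 room air UMIs of Rgs5. In the remaining ECs, part of them cells with venous counts and Gja5 or Bmx, Ptgs2 had a log2 ratio of 0.88. In the venous ECs it had 19 and 400 UMIs and a log2 ratio of 2.18 (1.52 to 2.93). It was present in 6 of 25 and 45 of 100 cells, 8.33% and 31.2% after thinning, beside 0.546% and 2.22% of B cells, or 0.610% and 1.36% of thinned B cells, and 1 cell held 42.1% of the room air UMIs. Ddah1, which degrades an inhibitor of nitric oxide synthase, had 59.0 and 265 CPM and a log2 ratio of 2.17 (1.45 to 2.99). Among members with no UMI of the 6 fibroblast genes, 8 and 28 cells, the log2 ratio of Rgs5 was 0.81.

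**Figure D3:**
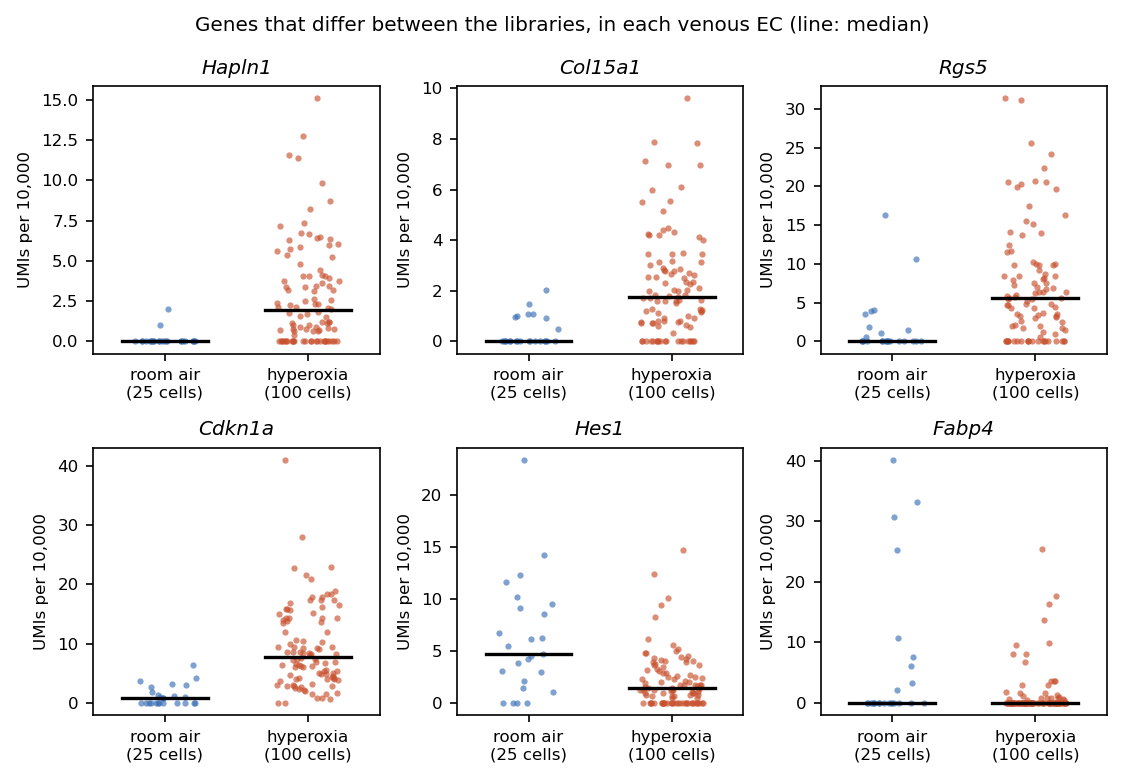
UMIs per 10000 UMIs of the cell for 4 genes higher (Hapln1, Col15a1, Rgs5, Cdkn1a) and 2 genes lower (Hes1, Fabp4) in hyperoxia, each point 1 venous EC and each line the median. All 6 genes overlap between the libraries, and Fabp4 is carried by 9 of 25 and 28 of 100 cells with a median of 0 in both.

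Kit, Clec1a, Clec2d and Lifr, genes of cell surface receptors and lectins, were among the 10 lower in hyperoxia. Kit, the receptor of stem cell factor and a marker of general capillary cells (gCap), had 45 and 43 UMIs, 166 and 34.2 CPM, a log2 ratio of -2.28 (-2.92 to -1.64) and -1.75 in the remaining ECs. The 5 room air members without Slc6a2 held 35 of its 45 room air UMIs, and among members with Slc6a2 the log2 ratio was -1.29. Clec1a, a C-type lectin receptor, had 280.1 and 89.1 CPM and -1.65 (-2.09 to -1.21), and Clec2d, a ligand of a natural killer cell receptor, 420.1 and 132 and -1.67 (-2.02 to -1.31). Lifr, the receptor of leukaemia inhibitory factor, had 372 and 116 CPM and -1.68 (-2.06 to -1.30). Of these, Clec1a had the opposite sign in the remaining ECs, with 616 and 842 CPM and a log2 ratio of 0.45. Clec2d and Lifr had log2 ratios of -0.17 and -0.99 among the 8 and 28 members with no fibroblast UMI.

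Fabp4, Cd36 and Slc6a6 were also among the 10 genes with the smallest ratios. Fabp4, a fatty acid binding protein of capillary and venous ECs, had 197 and 192 UMIs, 726 and 153 CPM and a log2 ratio of -2.25 (-2.54 to -1.95). The remaining ECs had 52.8 and 186 CPM and a log2 ratio of 1.82. The arterial ECs had 0 and 199.9 CPM, in hyperoxia more than either other class. Fabp4 was carried by 9 of 25 and 28 of 100 venous ECs, beside 1.09% and 0.888% of B cells, and by 33.3% and 10.4% of thinned venous ECs. Of room air UMIs 1 cell held 31.0%, and without the highest cell of each library the log2 ratio was -2.08. Cd36, the fatty acid translocase, had 582 and 187 CPM and -1.64 (-1.94 to -1.34), and -0.89 among members with no fibroblast UMI. Slc6a6, the taurine transporter, had 468 and 157 CPM and -1.58 (-1.91 to -1.25), with 25.4% of the hyperoxia UMIs in 1 cell, and -0.99 when cells with Gja5 or Bmx were kept.

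Hes1, a transcriptional repressor induced by Notch, had 641 and 203 CPM and a log2 ratio of -1.66 (-1.94 to -1.37), against -1.02 in the remaining ECs. The lowest, median and highest venous EC had 0, 4.66 and 23.4 UMIs per 10000 in room air and 0, 1.39 and 14.7 in hyperoxia. Rnf144a, a ubiquitin ligase, had 405 and 119 CPM and -1.77 (-2.14 to -1.41), and H2-Q4, a class I gene outside the classical set, 328 and 111 and -1.56 (-1.95 to -1.16). In the plot of the 20 ratios the venous and remaining points lie on opposite sides of 0 for Col15a1, Fabp4, Clec1a and Slc6a6, and the difference of the ratios was not tested.

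**Figure D4:**
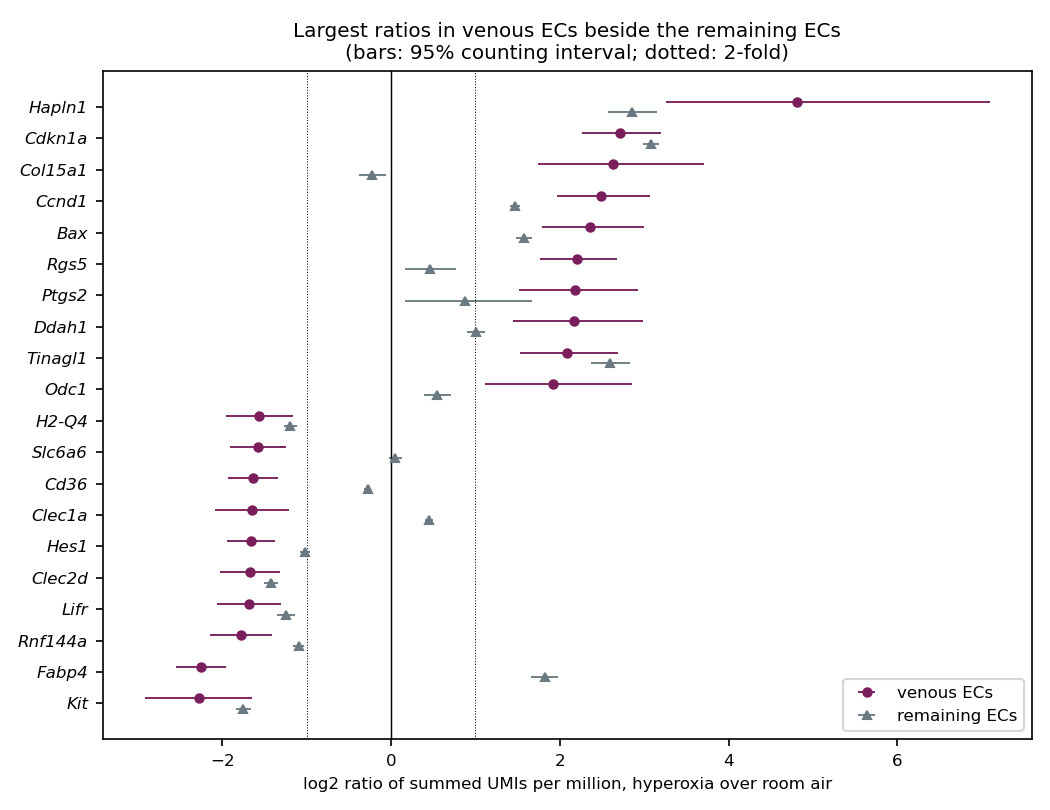
Log2 ratio of CPM, hyperoxia over room air, for the 10 genes at the top and the 10 at the bottom of the ranking in venous ECs, with 95% counting intervals, beside the same ratio in the remaining ECs. Fabp4 is at -2.25 in venous and 1.82 in remaining ECs, and Col15a1 at 2.64 and -0.22.

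Among venous genes outside the rule, 4 of 13 were at least 2-fold higher in hyperoxia (Ptgs2, Bst1, Csrp2 and Vcam1), where 3.9% of all genes were, and 0 were at least 2-fold lower, with a median log2 ratio of 0.59 against -0.031 for the same genes in the remaining ECs. Csrp2, a LIM-domain protein, had 549 and 1219 CPM and 1.15 (0.91 to 1.40), and Bst1 had 107 and 241 and 1.17 (0.62 to 1.78). Prss23 had a log2 ratio of 0.59 (0.40 to 0.79) and the adhesion receptor Adgrg6 one of 0.64 (0.40 to 0.90). The intervals of Nr2f2 at 0.22 (-0.067 to 0.51), Vegfc, a growth factor of lymphatic vessels, at 0.31 (-0.023 to 0.66) and Ephb4 at 0.32 (-0.063 to 0.72) include 0. Cpe and Amigo2 were lower, with -0.66 (-0.93 to -0.39) and -0.60 (-1.08 to -0.096). Slc6a2, which the rule used, had a log2 ratio of 1.04 (0.82 to 1.25), a value that the selection itself can move. The members without Slc6a2 bear on the other venous genes too. Among members with Slc6a2, Bst1 had 0.91 and Vcam1 0.71, under 2-fold, while Ptgs2 had 1.97 and Csrp2 1.10. Prss23 and Adgrg6 each had 0.40 there. Of the 4 genes past 2-fold, Ptgs2 stayed there under every alternative run, while Bst1, Csrp2 and Vcam1 had log2 ratios of 0.84, 0.90 and 0.42 when the rule was applied to cells thinned to 2000 UMIs.

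The aCap genes were carried in part by single members. Over all 3561 genes, 3.9% were at least 2-fold higher in the venous ECs of hyperoxia and 4.44% lower. Of 6 aCap genes past 50 CPM, 4 were at least 2-fold lower and 0 higher. Their median log2 ratio was -1.49 against 0.92 in the remaining ECs. Those 4 were Car4, Emp2, Tbx2 and Ednrb, and without the 2 room air members described above Car4 had a log2 ratio of 3.28, Emp2 -0.49 and Ednrb, the endothelin B receptor, -1.30. Without those 2 members Tbx2 had no room air UMI left. Of 6 gCap genes, 2 were at least 2-fold lower, where 4.44% of all genes were. They were Kit and Gpihbp1, the capillary anchor of lipoprotein lipase. Gpihbp1 had 638 and 218 CPM and -1.55 (-1.83 to -1.27), and -1.31 in the remaining ECs. Aplnr, the apelin receptor, had 254 and 197 CPM in venous ECs and 236 and 56.0 in the remaining ECs. Of 6 arterial genes, 0 passed 2-fold in either direction.

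**Figure D5:**
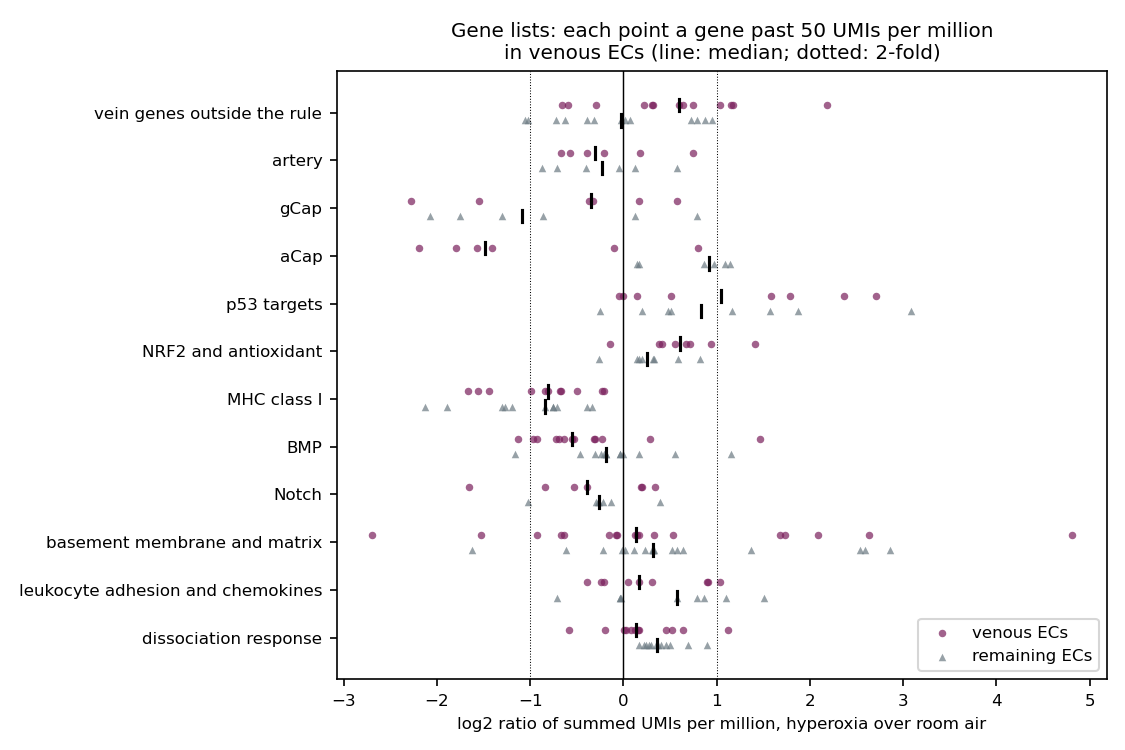
Log2 ratio of CPM, hyperoxia over room air, for the genes of 12 lists with a mean of at least 50 CPM in venous ECs, each point a gene in venous or remaining ECs and each line the list's median. The aCap list has medians of -1.49 in venous and 0.92 in remaining ECs, the MHC class I list -0.81 and -0.84.

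The transcription factor p53 halts or kills cells with damaged DNA. Of 8 of its targets past 50 CPM, 4 were at least 2-fold higher, where 3.9% of all genes were, and 0 lower, with a median log2 ratio of 1.04 against 0.83 in the remaining ECs and 0.016 over all genes. The 4 were Cdkn1a, Bax, Phlda3, which had 59.0 and 203 CPM and 1.78 (1.05 to 2.61), and Trp53inp1, which had 25.8 and 77.2 and 1.58 (0.48 to 2.93). Below 50 CPM, Gdf15, a stress-induced cytokine, had 2 and 98 UMIs and a log2 ratio of 3.40 (1.51 to 6.47), and Eda2r had 0 and 32 UMIs, at least 2.30-fold higher against a limit of 3 counts in room air. Mdm2, the ligase that turns p53 over, had 70.0 and 67.6 CPM and -0.05 (-0.78 to 0.75). Of 8 antioxidant genes, 1 was at least 2-fold higher, Txnrd1 (thioredoxin reductase) with 33.2 and 88.3 CPM and 1.41 (0.44 to 2.58). As a mean over single cells Txnrd1 had 0.94, under 2-fold. Intervals lay above 0 for 5 of the 8 and for 553 of all 3561 genes. Among the 5 were Gpx1 at 0.94 (0.49 to 1.42) and Prdx1 at 0.67 (0.38 to 0.98). Hmox1, haem oxygenase, had 0 and 41 UMIs, at least 2.95-fold higher against the same limit.

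MHC class I molecules present peptides to T cells. Of 11 MHC class I genes, 3 were at least 2-fold lower, 0 higher, and 4.44% of all 3561 genes were lower. Intervals lay below 0 for 9 of them and for 530 of all 3561 genes. The median log2 ratio of the list was -0.81 against -0.84 in the remaining ECs. H2-K1, a classical class I heavy chain, had 1146 and 575 CPM and -0.99 (-1.19 to -0.80), and B2m, the light chain, 1644 and 1033 and -0.67 (-0.83 to -0.51). The H2-Q genes are close copies whose reads could be split between them, so the values of H2-Q4 above and of H2-Q6 and H2-Q7, -1.66 (-2.39 to -0.91) and -1.44 (-1.89 to -0.99), are uncertain. Among members with Slc6a2 the log2 ratio of H2-Q6 was -0.80, under 2-fold. H2-Q7 fell under 2-fold among members with no fibroblast UMI, while H2-Q4 stayed past it under every alternative. Of 7 interferon-induced genes, 0 passed 2-fold up and 0 down, with a median of -0.49 against -1.33 in the remaining ECs. Iigp1 and Gbp4, guanosine triphosphatases of interferon defence, had 251 and 151 and 192 and 173 CPM in venous ECs of room air and hyperoxia against 175 and 38.2 and 136 and 54.0 in the remaining ECs.

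Leukocyte adhesion and haemostasis are main functions of venules. Of all 3561 genes, 3.9% were at least 2-fold higher in hyperoxia and 4.44% lower. Of 9 adhesion and chemokine genes past 50 CPM, 1 was at least 2-fold higher and 0 lower. It was Vcam1, the ligand of leukocyte integrin VLA-4, with 14 and 133 UMIs and 1.04 (0.24 to 1.95), and 1 hyperoxia cell held 29.3% of its UMIs. Icam1 had 269 and 502 CPM and 0.90 (0.55 to 1.27), and the chemokine scavenger Ackr3 741 and 916 and 0.31 (0.088 to 0.53). Selp, below 50 CPM, had 2 and 102 UMIs and 3.46 (1.57 to 6.53), and was present in 1 of 25 and 30 of 100 cells, beside 0.546% and 1.04% of B cells. Thinned to 2000 UMIs, Selp was found in 0 of 24 room air venous ECs and 10.4% of 96 hyperoxia venous ECs, beside 0% and 1.02% of B cells. Cxcl1, a neutrophil chemokine, had 0 and 43 UMIs, at least 3.09-fold higher against the limit of 3 counts. Sele and Madcam1, adhesion molecules of activated and mucosal venules, were low, Sele with 5 and 8 UMIs and Madcam1 with 0 in both libraries. Of 9 haemostasis genes, 1 was at least 2-fold higher, where 3.9% of all genes were. It was Anxa2, which binds plasminogen, with 431 and 1103 CPM and 1.36 (1.08 to 1.64). Among members with no fibroblast UMI Anxa2 had 0.59, under 2-fold. Procr, the protein C receptor, had 95.8 and 72.4 CPM against 10.3 and 5.63 in the remaining ECs, and Rab27a, a guanosine triphosphatase of Weibel-Palade bodies, 147 and 144 against 21.2 and 14.7.

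Of 17 vascular tone genes past 50 CPM, 2 were at least 2-fold higher, Ptgs2 and the rule gene Slc6a2, whose value the selection can move. The 4 lower were Gucy1a3, Gucy1b3, Pde5a and Ednrb. Of all 3561 genes, which leave out rule genes such as Slc6a2, 3.9% were higher and 4.44% lower. The values of Gucy1a3, Gucy1b3 and Pde5a rested on the 1 room air member with pericyte genes, and without it and the Car4 member Pde5a had a log2 ratio of 0.58 and no room air UMI of the other 2 was left. Nos3, the endothelial nitric oxide synthase, had 81.1 and 151 CPM and 0.90 (0.26 to 1.61), and Edn1, the vasoconstrictor endothelin 1, 372 and 193 and -0.95 (-1.29 to -0.60). Ace, which makes angiotensin II, had 372 and 235 CPM and -0.66 (-0.99 to -0.32).

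Of 18 basement membrane and matrix genes, 5 were at least 2-fold higher and 2 lower, where 3.9% and 4.44% of all genes were. Their log2 ratios ran from -2.70 to 4.81, with a median of 0.13. No value under the alternatives is given for the gene at -2.70, and whether a single member sets it was not tested. Besides Hapln1, Col15a1 and Tinagl1, Timp3, an inhibitor of metalloproteinases, had 372 and 1240.1 CPM and 1.74 (1.45 to 2.04), and Fn1 (fibronectin) 73.7 and 236 and 1.68 (1.03 to 2.41). Of the Fn1 UMIs of hyperoxia 1 cell held 52.2%, and among members with Slc6a2 its log2 ratio was -0.91. The major basement membrane collagens gave 0.33 (0.16 to 0.50) for Col4a1 and 0.53 (0.28 to 0.79) for Col4a2. Eln had 9726 and 6233 CPM and -0.64 (-0.71 to -0.58), and Hspg2, the proteoglycan perlecan, 177 and 61.3 and -1.53 (-2.07 to -0.98), or -0.51 when cells with Gja5 or Bmx were kept. Fibroblast genes were also higher in hyperoxia, with 47.9 and 271 CPM of Mfap4 and 0 and 70.8 of Dcn, and without the highest cell of each library Mfap4 had a log2 ratio of 0.29. Their part in the matrix values was not tested. Among members with no fibroblast UMI the 5 higher genes had log2 ratios of 3.18 for Hapln1, 2.36 for Col15a1, 2.01 for Tinagl1, 1.13 for Timp3 and 0.43 for Fn1, the last under 2-fold.

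Lists of signalling pathways of vascular development were counted next. Of 13 genes of the bone morphogenetic protein pathway, which maintains pulmonary vessels, 1 was at least 2-fold higher and 1 lower, near the 3.9% and 4.44% of all genes. Intervals lay below 0 for 8 of the 13, against 530 of 3561 over all genes, and the median log2 ratio of the list was -0.55 against -0.19 in the remaining ECs. The lower one was Tmem100, a target of this pathway, with 826 and 377 CPM and -1.13 (-1.36 to -0.89), and 0.41 among members with no fibroblast UMI. The target genes Id2 and Id3 had -0.97 (-1.35 to -0.58) and -0.53 (-0.71 to -0.34), the inhibitory Smad6 and Smad7 -0.69 (-1.07 to -0.28) and -0.64 (-0.92 to -0.35), and the ligand Bmp4 -0.92 (-1.33 to -0.51). The higher one was Cgnl1, a junction protein, with 44.2 and 123 CPM and 1.47 (0.62 to 2.45). Of 7 Notch genes, Hes1 alone passed 2-fold, and the receptor Notch1 had -0.53 (-0.86 to -0.18). Of 10 genes of VEGF, apelin and Tie signalling, 6 of TGF-beta and 12 of the response to flow, 0 passed 2-fold in either direction. Kdr, the main VEGF receptor, had -0.53 (-0.80 to -0.26) in venous ECs, but 0.079 among members with Slc6a2. Klf2, a flow-induced factor, had -0.48 (-0.64 to -0.31) in venous and 0.21 in remaining ECs.

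Of 5 genes of fibroblast growth factor signalling past 50 CPM, Spry2, a feedback inhibitor, was at least 2-fold lower with 122 and 49.3 CPM and -1.30 (-1.93 to -0.65), or -0.97 when cells with Gja5 or Bmx were kept. Fgfr1 had 4 and 29 UMIs, 14.7 and 23.1 CPM and a log2 ratio of 0.65 (-0.86 to 2.62), an interval that includes 0. Fgfr3 had 111 and 201 CPM and 0.86 (0.31 to 1.46). Of 12 genes induced by tissue dissociation, 1 was at least 2-fold higher, Zfp36 with 258 and 563 CPM and 1.13 (0.77 to 1.5), or 0.82 among members with no fibroblast UMI, and the median was 0.14. Of 8 genes of hypoxia and glycolysis, 0 passed 2-fold. Over all 3561 genes, 3.9% were at least 2-fold higher and 4.44% lower.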

How the data were processed

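Droplet single-cell RNA-seq of whole lung was measured in 1 room air and 1 hyperoxia library, each of 8 pooled pups. The authors deposited raw UMI counts per gene and barcode, aligned to mm10. The processing notes name Cell Ranger 2.1.1, the matrix headers a software version of 3.1.0 and the protocol text a further version, so the version used is unsettled. Members and gene lists were chosen with earlier results of these data known. Cells were filtered on detected genes (500 or more) and mitochondrial UMIs (20% or fewer) before the marker limits. B cells, taken as cells with at least 3 UMIs of Cd79a and Ms4a1 together and none of the endothelial genes, gave the background of free RNA. No doublet was removed in the values reported.

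UMI counts were summed over the cells of a class in each library and divided by the sum (CPM). Ratios have exact conditional Poisson intervals, shares exact Clopper-Pearson intervals. With 1 library per group there was no test, no p-value and no edgeR or other count model, and a gene was counted as higher or lower from 2-fold among genes with a mean of at least 50 CPM. A count of 0 was set to a limit of 3 counts. The scripts were tested on simulated data. Genes named were the top 10 and bottom 10 by hyperoxia over room air ratio, the 15 with the largest ratio over the remaining ECs in the library where it was smaller, both ranked among genes that the rule did not use, without mitochondrial, ribosomal, haemoglobin and sex-linked genes, and members of the lists. Of the 15, 1 is not reported here. List members named for values short of 2-fold, and those under 50 CPM, were chosen after their values were seen.

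Alternatives were other cell filters and marker limits, thinning to 2000 UMIs, removal of simulated doublets, other scaling (TMM, edgeR 4.0.16), other CPM minima and only members with no UMI of Col1a1, Col1a2, Col3a1, Mfap4, Pdgfra or Dcn. Members with Slc6a2 only, leaving out the highest cell of a gene and leaving out 2 room air members were chosen after seeing the data. Python 3.11.15, numpy 2.4.6, scipy 1.17.1, pandas 2.3.3, scikit-learn 1.9.0 and matplotlib 3.10.9 were used.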

Additional observations from a re-analysis of the deposited data

Results flagged for a closer look

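Of the 20 genes ranked by their hyperoxia over room air ratio, 3 had ratios in venous ECs and in the remaining ECs that lay on opposite sides of 0, each with an interval that did not include 0, and the difference between the classes was not tested. Col15a1 had a log2 ratio of 2.64 in venous and -0.22 in the remaining ECs. Fabp4 had -2.25 and 1.82. Clec1a had -1.65 and 0.45, and 60.5% of its room air UMIs came from the 5 members without Slc6a2. In hyperoxia 55.4% of its UMIs came from the 14 such members. Among members with Slc6a2 its log2 ratio was -1.69.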

How the results depend on the processing

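The 25 cells of room air limit every ratio, and 8 of them and 28 of hyperoxia had no fibroblast UMI. The difference in venous share ran from 0.956 to 1.42 percentage points over its alternatives. The 139 genes at least 2-fold higher in hyperoxia became 469 with only members with no fibroblast UMI, 212 with a mean over single cells, 754 and 28 with CPM minima of 10 and 200, and 209 without the cell with the most UMIs of each gene. The 158 lower genes became 482 with no fibroblast UMI, 777 and 27 with the same minima, 101 without the highest cell and 89 with Gja5 and Bmx not used. The 135 genes higher than in the remaining ECs became 265 at a minimum of 10 CPM. Of all 48 named genes past 2-fold, 27 fell short of it under some alternative, and 21 stayed there wherever a ratio could be formed. Those 21 include Gucy1a3 and Gucy1b3, whose room air UMIs all came from 1 member. Without that member they had no room air UMI and no finite ratio, so they did not hold. Of the 20 ranked genes among them, 15 stayed past 2-fold under every alternative, and Cd36, Clec2d, Lifr, Rgs5 and Slc6a6 did not.

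Log2 ratios changed sign as follows, and the cause was not tested where no single cell is named above. With the rule applied to thinned cells Car4 had 1.14, Tbx2 1.14, Fn1 -0.99 and Mfap4 -0.70. With simulated doublets removed Fn1 had -0.31, Mfap4 -0.089 and Tagln -0.76. With members that had Slc6a2 only, Car4 had 0.58, Fn1 -0.91 and Tagln -0.23, and with Vwf not used Tagln had -0.10. With no fibroblast UMI Gpihbp1 had 0.80, Tmem100 0.41 and Vcam1 -1.25. Without the 2 room air members Car4 had 3.28 and Pde5a 0.58, and without the highest cell Car4 had 2.50. Gucy1a3, Gucy1b3 and Tbx2 had no room air UMI left without the 2 members, so they went from lower to present in hyperoxia only. No paired analysis was possible because each group is 1 library.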

Other observations

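Of 12 pan-endothelial genes past 50 CPM, 0 were at least 2-fold higher in hyperoxia and 0 lower, with a median log2 ratio of -0.14. Emcn, a sialomucin of venous and capillary ECs, had 365 and 554 CPM and 0.60 (0.30 to 0.92). Lyve1, a hyaluronan receptor best known from lymphatic vessels, had 955 and 2036 CPM in venous ECs, 540.4 and 727 in the remaining ECs and a log2 ratio of 1.09 (0.91 to 1.28) in venous ECs, while the other lymphatic genes Ccl21a and Pdpn had 1 and 2 UMIs in hyperoxia and 0 in room air. Of the genes of DNA replication below 50 CPM, Mcm5 had 1 and 40 UMIs, Mcm2 2 and 47 and Tyms 3 and 44 in room air and hyperoxia, log2 ratios of 3.11 (0.55 to 8.45), 2.34 (0.41 to 5.43) and 1.66 (0.021 to 3.99), and Mki67, which the rule capped, 2 and 5. In the cell cycle list, Cdkn1a was the gene past 2-fold of 2 past 50 CPM. Of the mesenchymal genes outside the matrix list, Tagln had 44.2 and 126 CPM and 1.52 (0.67 to 2.50), with 61.6% of its hyperoxia UMIs in 1 cell. Of the circadian genes, Per1 had 10 and 89 UMIs and 0.94 (-0.004 to 2.05) and Nr1d2 16 and 43 and -0.79 (-1.64 to 0.14). MHC class II genes had a mean under 50 CPM, with 15 and 9 UMIs of H2-Aa. Xist had a log2 ratio of -0.35 (-0.59 to -0.11) and the Y-linked Ddx3y 0.11 (-0.45 to 0.72) in these pooled pups.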
